A study of Rattus norvegicus with 6 samples.

Results

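Alternative exon ends arise where an exon is spliced at more than 1 position on the same side. An exon with more than 1 acceptor site varies at the end that splicing joins to the upstream exon, and an exon with more than 1 donor site varies at the end joined to the downstream exon. Forms that differ by whole codons keep the reading frame, whereas other offsets shift it if they lie in coding sequence. Vascular smooth muscle cells (VSMCs) make up the contractile layer of arteries, where alternative exons are known in many genes of the cytoskeleton and the extracellular matrix.

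The events described here are all entries of the types AE and XAE, which mark alternative exon ends. What the X adds is explained neither by the labels nor by the study. Across the 6 libraries they made up 5813 of 57428 distinct event identifiers. Of their exon coordinates, 406 were listed under both types, so that the identifiers came to 5407 distinct exon forms in 2157 gene loci. Both types together were counted once per form, and 685 forms (12.7%) were listed as XAE alone. Of the forms, 5166 (95.5%) carried an Ensembl gene ID.

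The study's methods describe rat VSMCs at passage 3, grown in DMEM/F12 with 20% serum, and the labels give the strain SD. The 3 groups were control virus (wild type in the labels, n = 2 libraries), interference sequence 2 against SLC2A10 (n = 2) and interference sequence 3 against SLC2A10 (n = 2). SLC2A10 encodes the glucose transporter GLUT10. The labels give both sequences the genotype SLC2A10-/-, the titles name siRNA, and the study's methods describe knockdown by short hairpin RNA. The extraction protocol names frozen aorta and the design text names mice, so whether cultured cells or tissue were sequenced was not settled here. The sequence numbers were read from the titles. Separate cultures are not stated for the replicates. A p-value here covers the spread of these libraries alone, and that spread may be technical. No list pairing rat Ensembl IDs with gene names was available here, so 0 of the 12251 IDs could be named. The knockdown of SLC2A10 and the identity of the cells were therefore not checked, and every direction rests on the labels. In bulk RNA, fewer cells of a type and less RNA per cell cannot be told apart.

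Forms are named by chromosome, first and last base of the exon, as the deposited files give them. Their genome build is not stated in the sources used here. The level of a form is its FPKM as deposited. FPKM is fragments scaled to length and to the fragments mapped in that library. The values came from assembled transcripts. They are no read density of the exon itself, since exons of different length in a locus could hold identical values. FPKM holds no read count, so the depth behind each value is unknown. Replicate 2 of sequence 3 stood apart, with the fewest events of all types (38072 against 39090 to 40732 in the other libraries), and counts are therefore also given without it.

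Most variable exons had a pair of forms. Overlapping forms of a locus were taken as 1 exon group, which gave 2635 groups. Of these, 1922 (72.9%) held 2 forms, 449 held a single form and 264 held 3 or more. In 1765 of the 2157 loci (81.8%) there was 1 such group. The median form was 162 bases long, with an interquartile range of 108 to 281 bases and a full range of 11 to 10855 bases.

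Alternative acceptors were more frequent than alternative donors. In 1125 of the 1922 pairs (58.5%) the forms differed at the acceptor, in 794 (41.3%) at the donor, and in 3 at both ends. The most frequent offsets between acceptors were 18 bases (40 pairs), 15 bases (38 pairs), 21 bases (30 pairs) and 12 bases (24 pairs). Between donors they were 12 bases (32 pairs), 15 bases (23 pairs), 27 bases (19 pairs) and 21 bases (18 pairs). Each of these common offsets is a whole number of codons.

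Offsets of whole codons were more frequent in pairs whose forms were both listed in every library than in pairs with a rarely listed form. Among the 309 pairs with both forms in all 6 libraries, 197 (63.8%) had an offset that was a multiple of 3 bases. Among the 937 pairs whose less often listed form appeared in 1 library, 360 (38.4%) did. The share lay between 41.2% and 43.8% where that form was in 2 or 3 libraries and between 60.7% and 61.4% where it was in 4 or 5. Acceptor pairs went from 36.8% to 61.7% and donor pairs from 41.1% to 66.7% between these extremes. The median offset shortened over the same range, from 73 to 39 bases. These are counts over pairs that share libraries and are given with no test. The plot of pairs by the number of libraries shows the share for both kinds of pair.

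**Figure D1:**
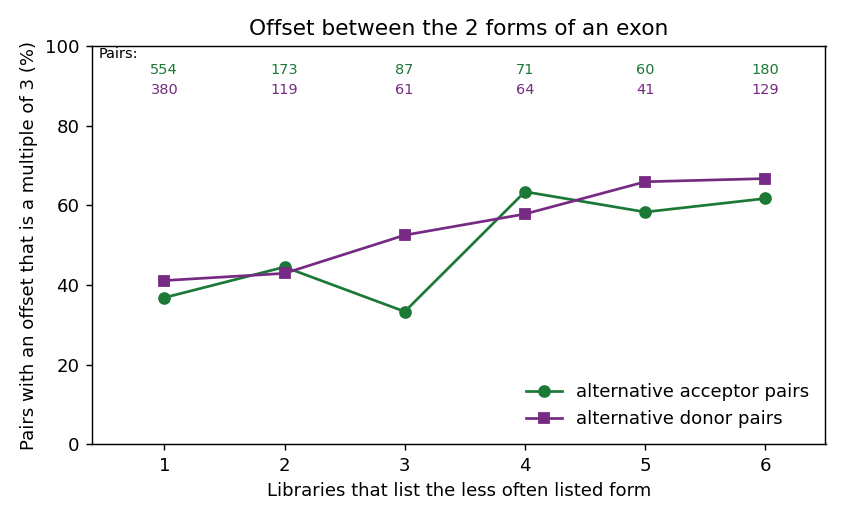
Percentage of 2-form exons whose forms differ by a multiple of 3 bases (vertical axis) against the number of libraries that list the less often listed form (horizontal axis), for acceptor pairs (circles) and donor pairs (squares). Numbers at the top give the pairs at each point, and both lines end above 60% after starting at 36.8% and 41.1%.

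Most forms were listed in every library or in 1. Of the 5407 forms, 2385 (44.1%) were listed in all 6 libraries and 1519 (28.1%) in exactly 1. Forms in all 6 libraries had a median FPKM of 5.61, against 0.889 for forms in 1 library. Among the latter, 557 were in a control library and 962 in a knockdown library, that is between 220 and 298 in each library. An Ensembl ID was given for 98.6% of the forms in all 6 libraries and for 92.0% of those in 1.

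The number of events did not separate the groups beyond what 6 libraries can show. The controls listed 3799 and 3775 exon end events. Sequence 2 listed 3614 and 3779, and sequence 3 listed 3700 and 3542. The second library of sequence 2 lay between the controls, and the other knockdown libraries lay below both. The knockdown mean was lower by 128 events (3658.8 ± 103 against 3787.0 ± 17.0, SD, n = 4 and 2, two-sided exact permutation test, p = 0.267), and 2 against 4 libraries cannot give a p below 0.133. Without replicate 2 of sequence 3 the difference was -89.3. Both event types had the same p, with 3197 and 3149 AE events in controls against 2976 to 3165, and 602 and 626 XAE events against 560 to 614. The plot of events per library shows these counts.

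**Figure D2:**
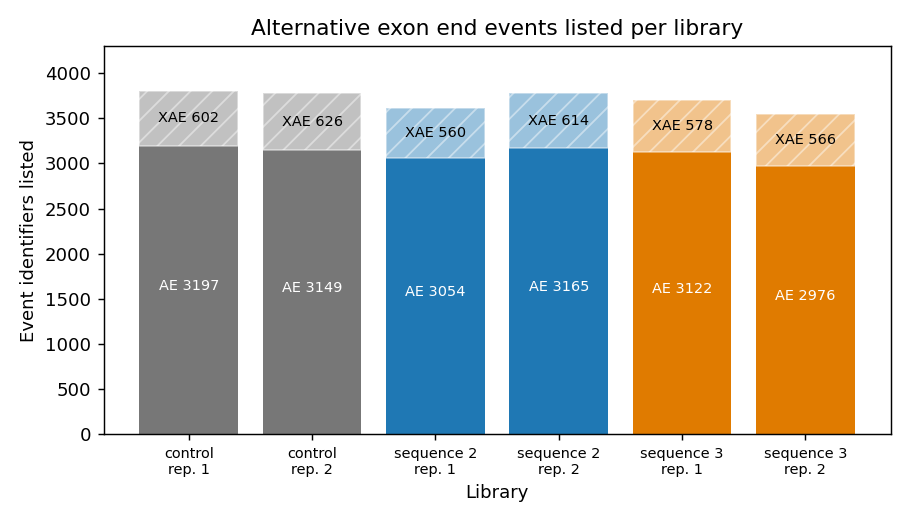
Alternative exon end events listed in each library (vertical axis, number of event identifiers), with AE events as solid bars and XAE events as hatched bars on top, coloured by group. The controls reach 3799 and 3775 and the knockdown libraries 3542 to 3779.

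Within well expressed loci the groups did not overlap. In loci with a level of at least 10 FPKM in all 6 libraries, the controls listed 1089 and 1092 forms, and the knockdown libraries 1053, 1067, 1075 and 1056. The difference of -27.8 forms had p = 0.133 in the exact permutation test, the smallest these libraries can give. This restriction was added after seeing the data. Exon end events made up 9.33% and 9.42% of all events in controls, against 9.25% to 9.32% in the knockdown libraries (exact permutation p = 0.133).

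The forms of highest level did not pass the test between knockdown and control. The form chr8:85839420-85839676, 257 bases long, had FPKM values of 1723.9 and 1814.3 in controls, 2229.8 and 2077.8 with sequence 2 and 2287.7 and 1958.2 with sequence 3. The knockdown libraries lay above the controls, with a log2 change of 0.27 that missed the threshold (standard error 0.132, adjusted p = 0.343 from limma). Its shorter form chr8:85839420-85839601 was listed in 1 library, replicate 2 of sequence 3, at 417 FPKM. The form chr9:78930418-78930609 had 1368.5 and 1140.9 in controls, 1015.8 and 1329.1 with sequence 2 and 1046.9 and 728 with sequence 3, so the groups overlapped (adjusted p = 0.476 from limma). In the same locus, an exon from base 78911609 had 3 listed ends in every library, and the longest of these, ending at 78912075, was the highest of the 3 in each library, at 380 to 755 FPKM. The forms chr8:64494577-64494847 and chr8:64495715-64495865 of another locus had identical values, 902 and 984 in controls, against 1000.8 to 1132.3 in the knockdown libraries (adjusted p = 0.540 from limma). The form chr4:31536674-31537271, which was not tested, had 1304.8 and 1282 in controls, 1091.1 in replicate 1 of sequence 2, and 1122.3 and 1036.6 with sequence 3. It was not listed in replicate 2 of sequence 2, where its locus stood at 1209.1, so a form can go unlisted while its locus is high.

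The locus with the most forms had mostly rare ones. The locus on chromosome 1 from 225197424 to 225210575 held 85 forms of 1 exon group, between 141 and 10855 bases long, and 55 of them were listed in 1 library. It carried 27 and 34 events in controls, 18 and 39 with sequence 2 and 19 and 37 with sequence 3, so the libraries of each sequence lay on either side of both controls. The next loci by mean number of events held 10 to 26 forms each, on chromosomes 1, 8 and 10. In these 5 loci the smallest unadjusted p for a share was 0.0388, with an adjusted p of 0.602 from limma.

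The first comparison asked whether forms differ in level between knockdown and control. A form was tested if it was listed in all 6 libraries with a mean FPKM of at least 1, which held for 2302 of 5407 forms in 1597 loci. Tests were made with limma on log2(FPKM + 1) and adjusted over the 27218 forms of all event types. A log2 change is on that scale and understates the change of low forms. Of the 2302 forms, 63 (2.74%) passed an adjusted p of 0.05. The background over all event types was 3.23%, so the exon end forms did not exceed it.

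At the adjusted threshold, falls were more frequent and larger than rises. In the knockdown libraries, 46 forms (2.0%, background 1.85%) were lower and 17 (0.738%, background 1.38%) were higher. The lower forms had a median log2 change of -1.59. On the scale of FPKM + 1, 39 of them changed at least 2-fold and 6 at least 10-fold. The higher forms had a median of 0.92, and 4 changed at least 2-fold on that scale, which understates changes in FPKM. At an unadjusted p under 0.05 the split was the other way, with 139 forms lower and 226 higher. With all libraries scaled to 1 median it was 157 lower and 188 higher, so this split depends in part on scaling. Without that scaling, the median log2 change over all tested exon end forms was 0.047, against 0.079 over all event types. Without replicate 2 of sequence 3 there were 38 lower and 9 higher forms. With unlisted forms set to 0 and at least 1 FPKM required in at least 2 libraries, 81 were lower and 17 higher of 3191 tested, and the background over all event types in that fit was 3.35%. In each of the 63 called forms the knockdown and control libraries did not overlap. Over all 2302 forms they did not overlap in 585 (25.4%, background 30.6%). Both counts rest in part on single libraries. Lower forms numbered 25 without control replicate 1, 20 without control replicate 2, and 28 and 27 without replicate 1 and 2 of sequence 2. Higher forms numbered 3, 6, 4 and 4 in the same fits.

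The largest fall was in the form chr1:214250870-214251032, 163 bases long, in the locus with the ID ENSRNOG00000017414. Its FPKM was 473 and 467 in controls, 2.54 and 2.96 with sequence 2 and 6.87 and 7.36 with sequence 3. The log2 change was -6.42 (standard error 0.104, adjusted p = 1.04e-05 from limma), and the host locus fell by 6.20 on the same scale. A shorter form of this exon, chr1:214250870-214250936 of 67 bases, uses another acceptor. It was not listed in controls and had 0.658 and 0.441 FPKM with sequence 2 and 1.98 and 0.827 with sequence 3. The longer form thus remained the higher one in every library.

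The form chr2:256914793-256915353, of the locus ENSRNOG00000022218, had 38.8 and 30.0 FPKM in controls. It had 0.0705 and 0.446 with sequence 2 and 1.92 and 1.68 with sequence 3, a log2 change of -4.24 (standard error 0.198, adjusted p = 0.000252 from limma). Its partner chr2:256914793-256915283, 491 bases long, had 0.00805 and 11.0 FPKM in the 2 controls, so the controls themselves differed in the use of this acceptor. The partner had 0.238 to 1.20 FPKM in the knockdown libraries and did not pass the test.

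The form chr7:2695705-2695797 had 147 and 139 FPKM in controls and 6.33, 6.46, 9.58 and 9.10 in the knockdown libraries (log2 change -4.04, adjusted p = 2.81e-05 from limma). Its longer partner was listed in 1 knockdown library at 0.504 FPKM. The form chr3:48598499-48598667 had 47.3 and 33.9 FPKM in controls, against 0.833 to 2.38 in the knockdown libraries (log2 change -3.96). A partner 142 bases long appeared in control replicate 2 alone, at 7.67 FPKM. The form chr9:54304605-54304698 had 110 and 117 FPKM in controls, against 8.91 to 11.3 in the knockdown libraries (log2 change -3.45). In the same locus the form chr9:54327360-54327545 fell from 99.7 and 100 to the same 8.91 to 11.3 FPKM. There a form with another donor, chr9:54327425-54327545, was listed in both controls, at 10.7 and 17.2 FPKM, and in 0 knockdown libraries.

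The rises were smaller. The form chr5:168020420-168020544, of the locus ENSRNOG00000036942, had 3.24 and 5.07 FPKM in controls, 15.3 and 14.4 with sequence 2 and 16.5 and 17.6 with sequence 3. The log2 change was 1.74 (standard error 0.172, adjusted p = 0.00607 from limma). Its longer partner chr5:168020309-168020544, which uses an upstream acceptor, rose too, from 1.09 and 0.681 to 2.85 to 4.73 FPKM (log2 change 1.36, adjusted p = 0.0459 from limma). The shorter form held 74.8% and 88.2% of the pair in controls, against 76.4% to 83.5% in the knockdown libraries, so its share overlapped between the groups while both levels rose.

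The form chr1:157649609-157649692, of the locus ENSRNOG00000010224, had 2.86 and 3.71 FPKM in controls, against 8.12 to 10.2 in the knockdown libraries (log2 change 1.22, adjusted p = 0.0182 from limma). The form chr2:251724170-251724269 had 33.3 and 25.8 in controls, against 59.4 to 77.9 in the knockdown libraries (log2 change 1.16). A pair of longer forms of this exon was listed in control replicate 1 alone, at 3.67 and 4.24 FPKM. The form chr3:166461831-166461873, 43 bases long, had 0.721 and 0.693 in controls, against 1.80 to 2.98 in the knockdown libraries (log2 change 1.00). The adjusted p of the last and of chr5:168020309-168020544 lay above 0.05 when any 1 library was left out, at 0.0629 to 0.223 from limma. For chr1:157649609-157649692 it lay between 0.0668 and 0.138 without either control or either library of sequence 2. For chr2:251724170-251724269 it was 0.0993 without control replicate 2 and 0.0619 without replicate 2 of sequence 2. The 5 named falls kept an adjusted p under 0.05 from limma without any 1 library. The plot of the named falls and rises gives all 6 values of each form.

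**Figure D3:**
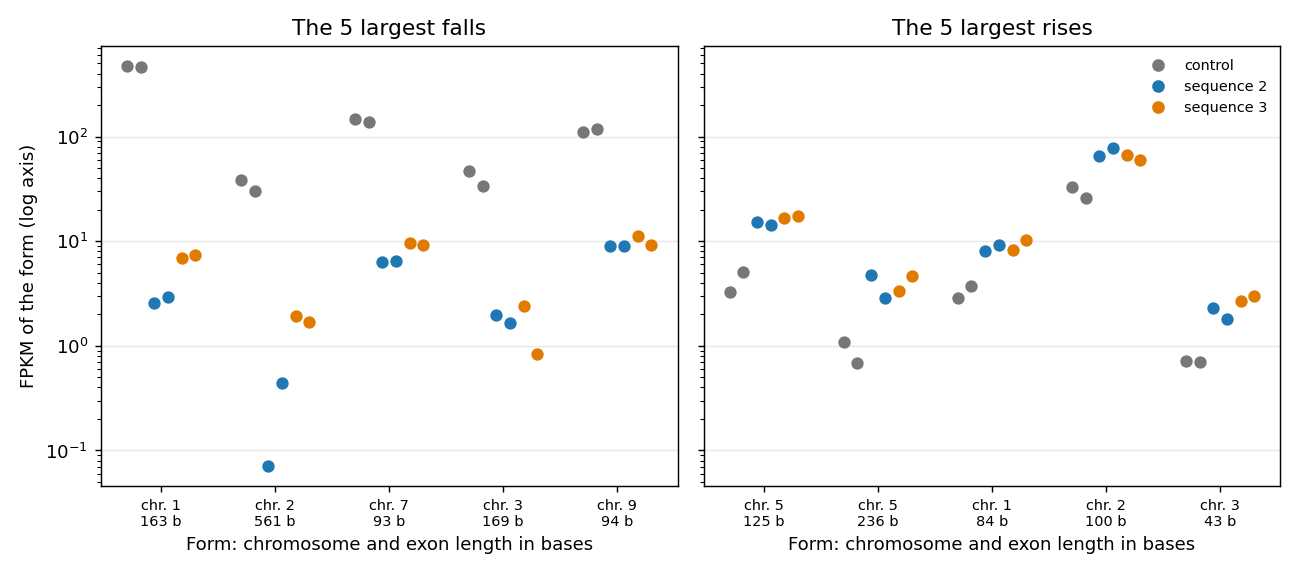
FPKM of the 5 forms with the largest falls (left) and the 5 with the largest rises (right), on a log axis, 1 point per library, coloured by group; each form is marked by its chromosome and exon length. The controls lie above all 4 knockdown libraries in each fall and below them in each rise.

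Most called forms were in loci called in the same direction. Of the 46 lower forms, 44 were in loci whose own level was called lower. Of the 17 higher forms, 12 were in loci called higher and 5 in loci that were not called. The 46 lower forms came from 38 loci, 8 of which held 2. A form and its locus are built from the same transcripts, so these counts are no separate evidence. Both lower forms in uncalled loci had point changes of the locus in the same direction, -1.07 for chr5:136761165-136761291 and -0.52 for chr12:13526691-13527329. Their own log2 changes were -1.08 and -0.92. These 2 forms were chosen after their values were seen. Over all 2014 tested loci that held an exon end form, 70 were lower (background 2.86%) and 32 were higher (background 2.25%). They were 32 and 6 without control replicate 1 and 35 and 8 without control replicate 2, and the higher loci were 6 and 9 without replicate 1 and 2 of sequence 2.

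**Figure D4:**
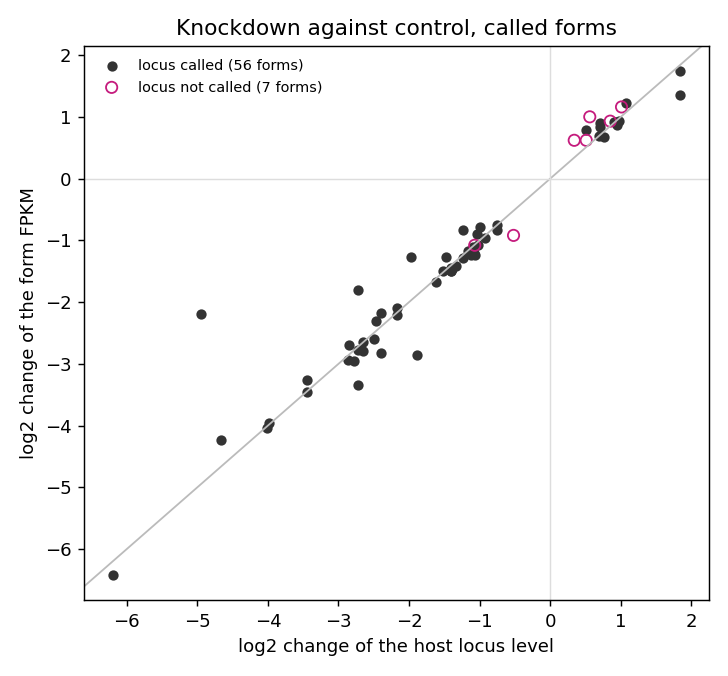
log2 change of FPKM between knockdown and control for the 63 called exon end forms (vertical axis) against the log2 change of the level of their locus (horizontal axis). The line marks equal change, filled points are the 56 forms in loci that were themselves called and open points the 7 in loci that were not.

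Each sequence had more falls than rises at the adjusted threshold. Against control, sequence 2 had 35 lower and 5 higher forms of 2302 (backgrounds 1.44% and 0.621%), and sequence 3 had 34 lower and 9 higher (backgrounds 1.36% and 0.878%). At an unadjusted p under 0.05 there were 133 lower and 162 higher forms with sequence 2, and 152 and 226 with sequence 3. With all libraries scaled to 1 median they were 147 and 137 with sequence 2, and 178 and 172 with sequence 3. The excess of rises at this threshold was thus not kept under scaling. Both comparisons used the same controls. Set directly against each other, sequences 3 and 2 gave no call. Here 0 exon end forms passed in limma (background 0.00367%), the smallest adjusted p was 0.129, and 132 forms had an unadjusted p under 0.05.

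Some forms were listed on 1 side alone. Both controls and 0 knockdown libraries listed 90 forms (1.66% of 5407, against 1.23% of the forms of all event types). The locus level was tested for 85 of these, of which 38 were in loci called lower and 1 in a locus called higher. Some loci held several of these forms. Forms and loci are built from the same transcripts, so counts of this kind are no separate evidence. The matching share for forms of all event types is not given. The highest of the 90 forms was chr11:38035452-38035522, at 292 and 289 FPKM. Its locus stood at 339 and 337 in controls and at 0 to 1.40 in the knockdown libraries. The next, chr16:19939218-19939338, had 255 and 290 FPKM in a locus whose level, taken from its starts and ends, was 0 in each knockdown library. In contrast, chr1:220806187-220806367 had 4.72 and 23.9 FPKM in controls and was unlisted in the knockdown libraries, while its locus stood at 22.9 and 35.4 in controls, against 37.0 to 51.3 in the knockdown libraries.

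The reverse pattern asks for listing in 4 libraries and absence from 2, where the first asked for the opposite. The 2 counts therefore cannot be set against each other as gain and loss of forms. All 4 knockdown libraries and 0 controls listed 28 forms (0.518%, against 0.405% of all forms), 3 of them in loci called higher and 1 in a locus called lower. The form chr14:81667646-81667725 had 45.1, 32.6, 28.1 and 39.7 FPKM in the knockdown libraries. Its locus stood at 54.0 and 52.4 FPKM in controls, and at 32.6 to 45.1 in the knockdown libraries, so the locus was present where the form was not listed. The form chr14:84496368-84496488 had 5.52 to 23.6 FPKM in a locus whose level, taken from its starts and ends, was 0 in both controls. The forms chr7:18633589-18634407, at 4.01 to 16.6 FPKM, and chr1:102857250-102857418, at 2.18 to 5.86 FPKM, lay in loci listed in controls at 14.8 to 26.3 FPKM. These forms were chosen after their values were seen. A form absent from a table was unassembled or at 0 in that library, and no fold change is given for it.

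The second comparison asked whether the balance between the forms of a locus changed. The share of a form is its FPKM as a percentage of the summed FPKM of all exon end forms in the locus. A locus that rises or falls as a whole keeps its shares. The test used log2 of the ratio of the form to the other exon end forms, each with 1 FPKM added, over 2214 forms in 1470 loci.

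In limma, 1 of 2214 forms (0.0452%) passed an adjusted p of 0.05, against 0.109% of the forms of all event classes. At an unadjusted p under 0.05 there were 138 forms, 60 with a lower and 78 with a higher log2 ratio. With 1 FPKM added, the ratio can rise while the share does not. For chr1:157649609-157649692 the log2 ratio was 1.03, although its share was 100% in both controls and 92.1% to 100% in the knockdown libraries. The called form was chr1:214250870-214251032, described above. Its share was 100% in both controls, 79.4% and 87.0% with sequence 2 and 77.7% and 89.9% with sequence 3 (log2 ratio -7.34, adjusted p = 0.0399 from limma). With 1 FPKM added to each side and no other form listed in controls, this ratio also moves with the level of the form, which fell by 6.42. The call was lost when any 1 library was left out, with adjusted p between 0.156 and 0.256 from limma. It was also lost with smaller pseudocounts. In 768 forms of 380 exon groups whose competing form was also listed in all 6 libraries, and with no value added, 0 forms passed in limma and the smallest adjusted p was 0.315. That setting was added after seeing the data.

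With unlisted forms set to 0 and at least 1 FPKM in at least 2 libraries, 12 of 2980 forms passed in limma (background 0.328%). When the share was taken of the locus level, 6 of 2218 passed (background 0.175%). Between sequence 3 and sequence 2, 0 of 2214 forms passed in limma (background 0.0219%, smallest adjusted p 0.0691, 118 at an unadjusted p under 0.05). The groups did not overlap in 210 forms (9.49%), against 12.1% of the forms of all event classes.

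Shares differed as much between replicates as between groups. Over the 2212 forms that were below 100% in at least 1 library, the median absolute difference between the 2 controls was 4.09 percentage points. It was 3.88 points between the libraries of sequence 2 and 4.53 between those of sequence 3. From a control to a knockdown library it was 4.02 to 4.70 points. Levels behaved otherwise. The correlation of log2(FPKM + 1) across the 2302 tested forms was 0.943 between controls, 0.944 within sequence 2 and 0.922 within sequence 3, and 0.861 to 0.902 between a control and a knockdown library. For shares it was 0.889 between controls and 0.879 to 0.900 between a control and a knockdown library. Forms are not independent, forms of a pair have mirrored shares, and libraries of higher depth may agree better, so these values are a description. The plot of correlations shows both measures.

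**Figure D5:**
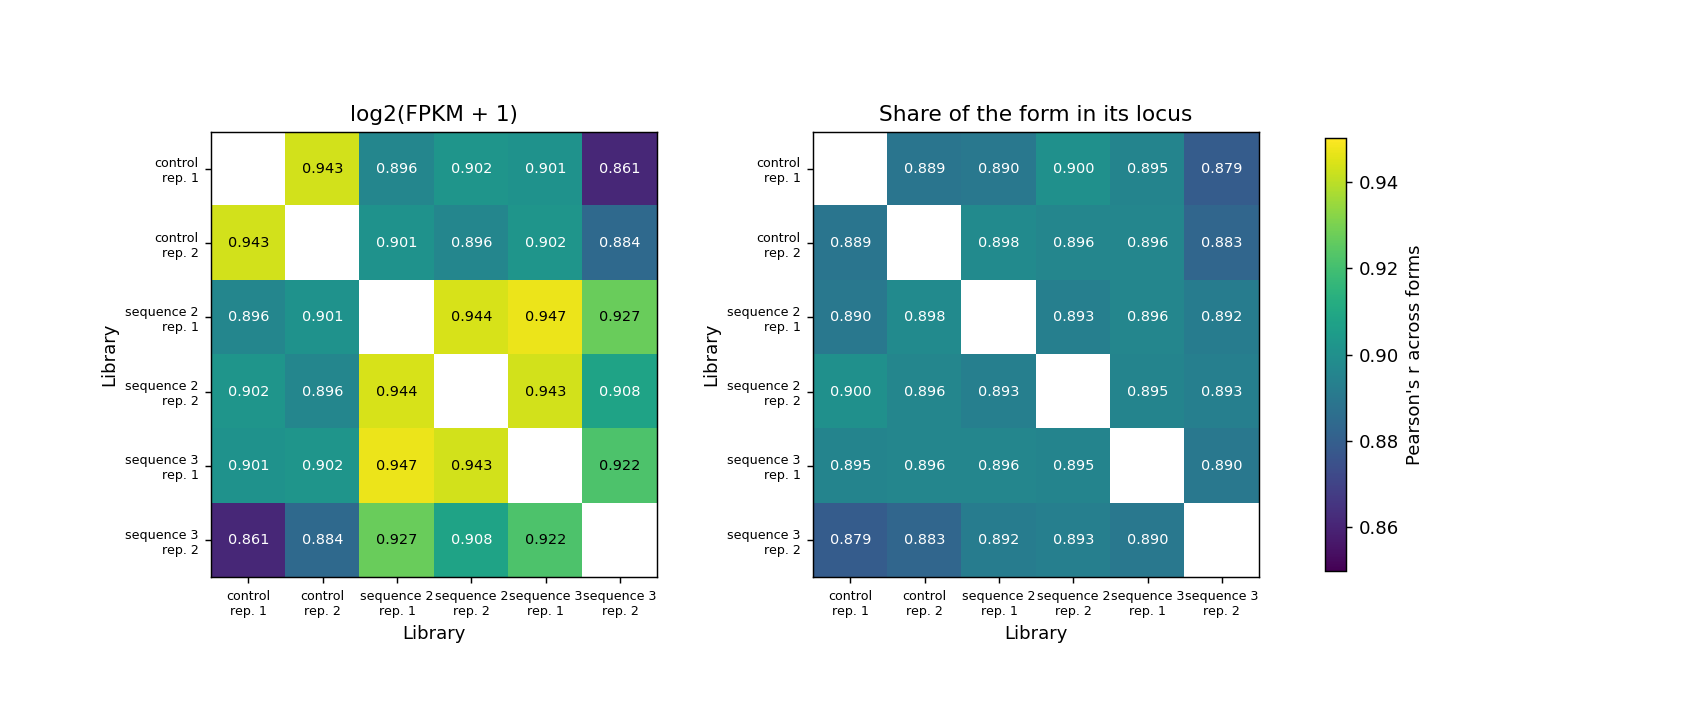
Pearson's r between each pair of libraries across exon end forms, for log2(FPKM + 1) over 2302 forms (left) and for the share of the form in its locus over 2212 forms (right). Levels give 0.943 between controls and 0.902 or less from control to knockdown, whereas shares give 0.879 to 0.900 for all pairs of libraries.

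The highest listed form of an exon was usually the same in every library. There were 1770 exon groups with 2 or more forms over all libraries and at least 1 form listed in each library. In 1425 of them (80.5%) the same form was the highest in all 6 libraries. Only 893 to 992 exon groups had 2 or more forms listed in a given library. The highest form was thus often the only one listed, and the 80.5% rests in part on listing. In 338 groups (19.1%) the highest form differed between libraries of 1 group. In 7 groups (0.395%) a form was highest in both controls and another form in all 4 knockdown libraries, with a tie counted as a lead. The tie was in the group from base 153858988 of chromosome 3, where both forms stood at 1.4 FPKM in control replicate 1. Of these 7, 3 had a summed mean FPKM of at least 10, and their forms are given here although they were chosen after their values were seen.

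On the X chromosome, the long form chrX:157353334-157353905 had 13.2 and 17.3 FPKM in controls, 9.37 and 0.885 with sequence 2 and 1.52 and 1.98 with sequence 3. The short form chrX:157353334-157353463 of 130 bases had 12.6 and 11.5 FPKM in controls and 14.4, 15.1, 16.1 and 29.6 in the knockdown libraries. The share of the short form missed the threshold (unadjusted p = 0.0304, adjusted p = 0.583 from limma). In chr1:222233516-222233684 and chr1:222233516-222233720 the pair was nearly even, with 14.0 against 13.6 and 16.9 against 15.8 FPKM in controls. The longer form led in the knockdown libraries, with 22.3 against 17.2, 18.3 against 17.7, 23.6 against 14.8 and 27.2 against 26.5 FPKM. The third pair, from base 222240160 of chromosome 1, was listed in control replicate 1 with the long form alone, at 0.787 FPKM.

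The knockdown and control means differed by at least 10 points in 392 of 2214 forms. In 104 of the 2214 the groups also did not overlap, against a background of 5.04% over all event classes. The 10 largest such changes in loci with a summed FPKM of at least 10 are given next, and their adjusted p from limma lay between 0.0864 and 0.633.

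In the locus of chr6:91883799-91883909 the shares of forms with different donors did not overlap between the groups. This form of 111 bases held 51.8% and 53.4% of the locus in controls, 72.9% and 68.3% with sequence 2 and 78.4% and 77.1% with sequence 3. Its main competing form chr6:91883810-91883909, spliced at an upstream donor, had 9.60 and 11.0 FPKM in controls, against 4.02 to 5.67 in the knockdown libraries. The locus stood at 27.3 and 27.0 in controls, 20.8 and 21.2 with sequence 2 and 21.8 and 26.5 with sequence 3, so its level was below both controls in each knockdown library but missed the threshold (log2 change -0.26, adjusted p = 0.251 from limma). The change of 21.6 points had an unadjusted p of 0.000977 and an adjusted p of 0.181 from limma.

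A pair of acceptors on chromosome 4 gave a change of similar size. The form chr4:145054850-145055058 of 209 bases held 51.7% and 35.1% in controls, 23.4% and 32.2% with sequence 2 and 25.3% and 8.57% with sequence 3. Its partner chr4:145054907-145055058 of 152 bases held the rest. The mean changed by -21.0 points (adjusted p = 0.630 from limma), and the gap between control replicate 2 and the nearest knockdown library was smaller than the gap between the controls. The form chr11:86517369-86517465 held 93.2% and 74.3% in controls, against 55.3% to 64.3% in the knockdown libraries, a change of -24.6 points. Here its FPKM of 6.93 to 12.3 overlapped between the groups. The form chr1:222240160-222240395 held 100% and 57.1% in controls, against 43.0% to 49.5% in the knockdown libraries.

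Other large changes of share were in loci that fell. The form chr20:4696011-4696043 of 33 bases held 41.3% and 35.9% in controls, against 77.9% to 100% in the knockdown libraries, while its FPKM fell from 20.8 and 15.3 to 0.588 to 2.36. The locus held 8 forms, of which 6 were listed in at least 1 control and 0 knockdown libraries. Likewise chr9:92732703-92732807 rose in share from 53.2% and 48.7% to 81.2% to 100% and fell in FPKM from 42.6 and 36.5 to 7.10 to 8.87. In that locus 4 forms of a pair of upstream exons were listed in controls alone. No start or end of this locus was listed in the knockdown libraries, so that its locus level stood at 0 although the form did not. Against the overlapping form of the same exon alone, the chromosome 20 form held 88.1% and 89.6% in controls and 100% in the knockdown libraries. The chromosome 9 form held 100% in both controls and 81.2% to 100% in the knockdown libraries by that measure, so its direction depends on the forms it is set against.

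The share of chr9:91003868-91004036 was 83.6% and 84.5% in controls, against 35.6% to 57.8% in the knockdown libraries, a change of -34.6 points (unadjusted p = 0.00177, adjusted p = 0.231 from limma). A form with an upstream donor, chr9:91003868-91003976, was listed in 0 controls and in 2 knockdown libraries, at 3.46 and 7.74 FPKM. In the other 2 knockdown libraries the form held 100% of its own exon. There the share in the locus was lower beside chr9:91001939-91001980, a form of another exon listed at 6.81 and 5.2 FPKM. The pair on chromosome 2 described above changed by 37.6 points, with 100% and 73.2% for the longer form in controls, against 9.57% to 65.2% in the knockdown libraries.

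The balance of long and short forms over all pairs depended on how pairs were weighted. In acceptor pairs listed in all 6 libraries, the longer forms held 40.0% and 39.8% of the summed FPKM in controls and 35.9%, 36.9%, 36.2% and 33.3% in the knockdown libraries (exact permutation p = 0.133). The mean of the share over the same pairs, in which each pair counts equally, was 46.3% and 47.8% in controls, against 47.1% to 48.2% in the knockdown libraries (exact permutation p = 0.533). In donor pairs the longer forms held 55.7% and 56.6% of the summed FPKM in controls, against 54.3% to 55.9% in the knockdown libraries (exact permutation p = 0.267). Their mean share over pairs was 53.4% and 52.1% against 50.2% to 51.2% (exact permutation p = 0.133). These are 4 of the 16 values per library compared in this way, and the Benjamini-Hochberg adjusted p of each exact permutation test lay at 0.329 or above.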

How the data were processed

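RNA of 6 libraries (2 each for control, sequence 2 and sequence 3) was analysed from event tables. The authors deposited FPKM for each start, end and splicing event of a locus, from transcripts assembled in each library. Tools named in the processing notes of the submitters are HISAT2 2.0.1 and StringTie 1.0.4, and also Trimmomatic 0.30, bcl2fastq 2.17.1.14, HTSeq 0.6.1 and SAMtools 0.1.18, with no role or order. Which build, which annotation and which event-listing program were used was not given in the sources used here. Only values above 0 are listed, so a missing form was unassembled or at 0.

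Repeated event identifiers were dropped in each library and forms were matched by locus, strand and exon coordinates. Exon groups were formed from forms that overlap by at least 1 base. The locus level was the larger of summed starts and summed ends. It is no strict total of a locus, since it could lie below the FPKM of a single form. In controls, chr11:86517369-86517465 had 10.3 and 12.3 FPKM in a locus with a level of 7.0 and 4.25. FPKM and shares were tested with limma 3.58.1 (R 4.3.3) with a mean-variance trend on log2 values with a pseudocount of 1, as 3 group means over the 6 libraries. Benjamini-Hochberg adjustment ran over the forms of all event types, with a threshold of 0.05. Single values per library were compared with two-sided exact permutation tests (SciPy 1.17.1). The code was tested on simulated data. Alternatives changed the pseudocount, filters, unlisted forms, scaling, trend, threshold, event types, denominator, replicate block and libraries.

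The members and lists were chosen with earlier results of these data known. Named forms were the 5 largest falls and rises of FPKM past the threshold with groups not overlapping, the 5 highest forms, the 5 loci with most events, and, because fewer than 5 passed in share, the 10 largest changes of share with groups not overlapping and a summed mean FPKM of at least 10. Other named forms are marked where they appear. Gene lists, cell type markers and SLC2A10 were not analysed, because 0 Ensembl IDs could be paired with a name. For the same reason, and without a genome of the files' build, no sequence is given.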

Additional observations from a re-analysis of the deposited data

How the results depend on the processing

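With each library left out in turn there were 20 to 46 lower and 3 to 17 higher exon end forms in FPKM, 0 forms in share, 32 to 88 lower and 6 to 37 higher host loci, and a difference of -168 to -89.3 listed events. Between sequence 3 and sequence 2 there were 0 to 1 forms in FPKM and 0 to 0 in share. Between groups, the replicate differences correlated at -0.116 (control and sequence 2), 0.168 (control and sequence 3) and -0.154 (sequences 2 and 3). With 2 libraries per group, these values cannot settle whether the replicate numbers pair the libraries. With the replicate number as a block, 34 forms were lower and 4 higher in FPKM, 0 were called in share, and 64 host loci were lower and 15 higher, all from limma. Between the sequences the block fit called 0 forms in either measure.

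Setting unlisted forms to 0, with at least 1 FPKM in at least 2 libraries in place of the limit on the mean, gave 81 lower forms, against 46 in the fit reported. The higher forms, 17 in the fit reported, were 11 without the filter on mean FPKM, 11 with all libraries scaled to 1 median and 11 without the mean-variance trend. An adjusted p under 0.01 left 23 lower and 1 higher. For the share, pseudocounts of 0.1 and 0.5, the limit of 0.01, unlisted forms left missing, and competing forms listed in all 6 libraries with no pseudocount (added after seeing the data) each gave 0 forms. The share of the locus level gave 6, no trend 7, a mean FPKM of at least 5 gave 3, scaling gave 2, and unlisted forms set to 0 gave 12. Between the sequences, 1 form passed in share with unlisted forms set to 0, 1 without the trend, 1 among overlapping forms and 1 as a share of the locus level, and 4 passed in FPKM with unlisted forms set to 0. The causes of these differences were not tested.

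The log2 ratio of chr20:4696011-4696043 turned from 1.89 to -1.15 among overlapping forms and to -1.23 as a share of the locus level, although the percentage among overlapping forms did not fall. That of chr9:92732703-92732807 turned from 2.18 to -3.1 and to -2.19. Both settings use another denominator. Of the other values for named forms under an alternative, 340 kept their direction and side of the threshold and 38 kept their direction without passing. FPKM gives no depth, so low forms could not be given a counting error.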
